A study of Homo sapiens with 30 samples.

Results

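The comparison described here is that of mock cells at the 24 h time with mock cells at the 10 min time. The methods describe the times as incubation that followed the exposure. Mock cells were BEAS-2B cells, a human bronchial epithelial line immortalised with viral genes, that went through the procedure of the pollen sedimentation chamber and received no pollen. The study describes these controls both as given pressured air alone and as shielded from pollen by a mesh, and the labels do not say which held for each array. The label for these samples is the condition air, and the 10 mg dose in it is that of the matching pollen cells. The members were chosen by 2 labels, condition and time, which gave 3 arrays at 10 min and 3 at 24 h, 6 of the 30 arrays of the series. The other 24 arrays were mock cells at 55 min, 2 h 25 min and 6 h 50 min, and pollen cells at all 5 times. All cells grew on Transwell inserts in BEGM, a bronchial growth medium, and had spent a day with their apical side in air after the last stated medium change. The 10 min and 24 h cells differed in the length of culture after the mock exposure. Replicates were repetitions on different days according to the methods, and BEAS-2B is a single immortalised line, so the values describe this line.

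Airway epithelium at the air interface is renewed from basal cells, which carry keratins 5 and 14 and the factor p63 and can turn squamous, secretory or ciliated. Cultured epithelial cells also answer handling and a new medium with a short wave of immediate early genes and cytokines, and they adjust lipid synthesis, metal buffering, protein folding and autophagy to the state of the medium. p53 is a factor that raises genes of cell cycle arrest, cell death and DNA repair.

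Total RNA was labelled with Cy3 and hybridised to one-colour Agilent arrays. A level below is the log2 of the processed signal minus the log2 of that array's 75th percentile, so a difference of 1 is 2-fold, and levels were compared between arrays but not between genes. Between 47.5% and 56.8% of probes were well above background at 10 min and between 48.3% and 50.2% at 24 h. No spot was saturated. All 3 arrays at 10 min lay on 1 slide and all 3 at 24 h on another, so that no slide held both times and the slide differed with time. The mock 55 min replicate 1 array shared the slide of the 10 min arrays, and the mock 2 h 25 min replicate 3 array shared that of the 24 h arrays. A fit with the slide as a fixed block linked both times through the 55 min and 2 h 25 min arrays, and the count of members called in it is given for each gene list. On the 10 min slide 1 array carried this link, mock 55 min replicate 1, so a deviation of that array enters each change from that fit. Single genes are given with its value in part. Of 146 named genes 55 kept their call in that fit, 88 lost it and 3 changed sign. For some genes the level of the 2 h 25 min array on the slide of the 24 h cells is also given. Counts per list were made under 3 other scalings too: quantile normalization, normexp with quantile normalization, and the 75th percentile over each array's own probes. These called fewer probes while 1 array of another design, of pollen cells at 55 min, was in the fit. Their counts are given as a range from fits that held that array. Without it, the counts under these scalings lay nearer to the first count given for most lists, as shown for 3 lists below.

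The day in culture was accompanied by changes in a large part of the transcriptome. Of 32099 probes tested, 5620 (17.5%) were higher and 6418 (20%) lower at 24 h (limma, Benjamini-Hochberg adjusted p below 0.05 and at least 1.1-fold). With 1 probe for each of 17921 genes, 3566 genes (19.9%) were higher and 3980 (22.2%) lower, and 510 and 1286 of these had changed at least 2-fold. The median change over these genes was -0.05 on the log2 scale. The 3 values of one time lay wholly above those of the other for 4831 genes in the direction of a rise and for 5479 genes in that of a fall. The split of the calls depended on the scaling. Of the called probes, 46.7% were higher with the 75th percentile over probes common to all arrays, and 57.7% with that over each array's own probes and no array of the other design. With the slide as a block, 445 genes (2.48%) were higher and 793 (4.42%) lower, and the median standard error of the difference rose from 0.19 to 0.37. The counts per list below are to be read beside these shares over all genes, 19.9% and 22.2% without the block. Since levels are relative to each array's 75th percentile, fewer cells of a type and less RNA per cell cannot be told apart.

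The labelled cell type was checked against its markers. All 7 epithelial markers listed (KRT7, KRT8, KRT18, KRT19, CDH1, EPCAM and CD24) were well above background on every array of both times. Of these, 5 were lower at 24 h, KRT19 by 1.96, CD24 by 1.12, KRT7 by 1.05, CDH1 by 0.83 and KRT8 by 0.81, and EPCAM was higher. Their summed signal is set mostly by the brightest probes, those of KRT7 and KRT18. It lay between 245 and 324 times the 75th percentile at 10 min and between 135 and 176 at 24 h, with no overlap. The part of this shift in the results below was not tested. Of the ciliated cell markers, FOXJ1, the master factor of motile cilia, was above background on 1 array at 10 min and on none at 24 h, and DNAH5, DNAI1, CCDC39 and TPPP3 on none. Mesenchymal markers were also measured, VIM, CDH2, ZEB1 and TWIST1 among them, and LUM was above background on no array. The summed signal of the 6 tested mesenchymal markers is set almost wholly by VIM, with a mean level of 6.81 at 10 min. It lay between 90.3 and 142 times the 75th percentile at 10 min and between 75.6 and 87.1 at 24 h. Decorin, DCN, fell by 2.73 (SE 0.27, limma adjusted p = 1.33e-07) and the receptor PDGFRB by 1.65 (adjusted p = 0.000313). VIM fell by 0.56 (adjusted p = 0.0179), while CDH2, ZEB1 and TWIST1 changed by -0.34, 0.23 and -0.04 and did not pass the test. Of the leukocyte markers tested, 0 of 4 passed the test.

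The largest fall was that of IGFL1. This gene for an insulin growth factor-like secreted protein had levels of -0.67, -1.99 and -0.94 at 10 min and of -5.47, -5.07 and -6.14 at 24 h. The groups lay far apart, a 20.6-fold fall (limma adjusted p = 1.82e-08, and 0.00882 with the slide as a block). CXCL14, an epithelial chemokine, went from -0.47, -1.19 and 0.27 to -5.27, -4.36 and -4.56, a 19.3-fold fall (adjusted p = 7.63e-08). CA9, a cell surface carbonic anhydrase and a classic target of hypoxia-inducible factor, had -1.79, -2.22 and -2.16 at 10 min and -5.39, -5.64 and -6 at 24 h, 12.3-fold lower (adjusted p = 2.64e-09). All 3 were also measured in the 2 h 25 min array on the slide of the 24 h cells, where IGFL1, CXCL14 and CA9 had levels of -1.73, -1.03 and -2, far above those at 24 h. ARHGDIB, a regulator of small GTPases, fell 12.2-fold, ANGPT1, a ligand of the TIE2 receptor, 11.8-fold, and PDE6A, a phosphodiesterase, 8.18-fold. ANXA8L1, a membrane-binding annexin with near-identical copies that its probe may also read, fell 7.83-fold and was the most even of these, with 4.48, 4.11 and 4.45 against 1.38, 1.41 and 1.34. CCN5, a matricellular protein, fell 7.43-fold, and SH2D6 and the antisense RNA ST7-AS1 were also among the 12 largest falls.

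Some genes fell below detection. KRT38, a hair keratin gene, was well above background on all arrays at 10 min (-3.63, -3.6 and -3.43) and on none at 24 h, which makes it at least 8.3-fold lower (limma adjusted p = 2.84e-13). Where a probe was not well above background in 1 of the groups, the fold is a lower bound against the faintest detected signals of those arrays. By the same measure FGG, the fibrinogen gamma chain, was at least 14.5-fold lower, TENM2, a teneurin adhesion protein, at least 7.15-fold and SERPINB4, a squamous cell serpin, at least 4.43-fold. SERPINB4 is near-identical to SERPINB3, and their probes may share signal. The 2 h 25 min array on the 24 h slide gave -3.82 for KRT38 and -3.07 for FGG, again above the levels at 24 h.

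The largest rises were smaller than the largest falls. LCN2, the iron-binding lipocalin of epithelial defence, had -2.2, -2.26 and -2.19 at 10 min and 0.98, 0.35 and 0.64 at 24 h. That is a 7.34-fold rise (limma adjusted p = 7.96e-07), which was 1.65 on the log2 scale (SE 0.58, adjusted p = 0.103) with the slide as a block. TNFRSF10D, a decoy receptor for the death ligand TRAIL, went from -0.52, -0.19 and -0.47 to 2.57, 2.2 and 2.1, a 6.43-fold rise that passed the test with the slide as a block too (adjusted p = 4.48e-10 and 0.00195). PPP1R15A, the GADD34 subunit that restores translation after stress, rose 4.72-fold, from 0.92, 0.5 and 0.34 to 3.02, 2.78 and 2.68 (adjusted p = 1.68e-07 and 0.0399). LRRN4CL rose 6.66-fold, SPMAP1 5.78-fold, the homeobox gene HOXB9 4.78-fold and EEF1A2, an elongation factor of muscle and nerve, 4.47-fold, and these 4 missed the threshold with the slide as a block (adjusted p 0.597, 0.276, 0.611 and 0.351). LMO7DN, PMF1-BGLAP, PRKCZ-AS1 and ATE1OSP were also among the 12 largest rises. Genes that came up from below detection included DACT1, a Wnt pathway modulator, at least 2.77-fold, the calcium pump ATP2B2 at least 2.72-fold, NKAIN2 at least 2.56-fold and PNLDC1 at least 1.7-fold.

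**Figure D1:**
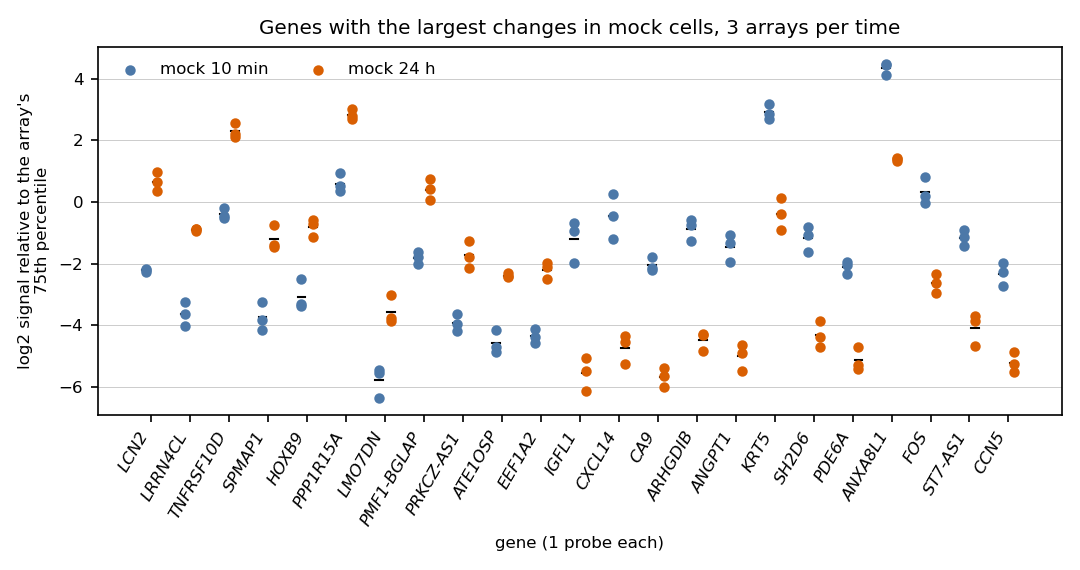
Levels of 11 of the 12 genes with the largest rises (left) and of the 12 with the largest falls (right) among those detected on all 6 arrays. Points are the 3 arrays of mock cells at 10 min (blue) and 24 h (orange), black bars the means, and the y axis is log2 signal relative to the array's 75th percentile. By the rule of choice the groups do not overlap, and the falls, 20.6-fold for IGFL1, exceed the rises, 7.34-fold for LCN2.

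Basal and squamous genes fell together. Of 24 tested members of a list of squamous and basal genes, 13 were lower and 0 higher at 24 h, with a median change of -0.89 against -0.05 over all genes. KRT5, the basal cell keratin, had 3.16, 2.7 and 2.84 at 10 min and 0.12, -0.9 and -0.39 at 24 h (hg19 chr12:52908622-52908681 for the probe). All 3 arrays at 24 h were below all at 10 min, a 9.76-fold fall (limma adjusted p = 8.09e-08, and 0.0106 with the slide as a block), and the 2 h 25 min array on the 24 h slide gave 2.56. KRT6B, an activation keratin, was at least 6.13-fold lower and SERPINB3 at least 4.65-fold, both with no 24 h array above background. TP63, which encodes p63, was at least 2.75-fold lower, from -4.81, -5.35 and -5.28. The calprotectin genes S100A8 and S100A9 fell by 2.73 and 2.04 on the log2 scale, KRT6A by 2.25, KRT15 by 1.76 and the cross-linking enzyme TGM1 by 1.16. KRT14, the partner of KRT5, gave 2 answers: its brighter probe changed by -0.48 (SE 0.27, adjusted p = 0.161) and its second probe, detected on 2 arrays at 24 h, by -4.38 (SE 0.33, adjusted p = 7.31e-09). The slide block left 4 of the 24 members lower and a median change of -0.64, and 8 to 11 were lower under the 3 other scalings.

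Secretory and ciliated genes were measured in part. Of 26 listed, 16 were tested, and 1 was higher and 4 lower, beside 19.9% higher and 22.2% lower over all genes. In the fit with the slide block 0 were higher and 3 lower. The membrane mucin MUC1 fell 4.1-fold, from -1.19, -0.74 and -0.7 to -2.99, -3.32 and -2.43 (limma adjusted p = 6.56e-06), though a second, faint probe changed by -0.71 (adjusted p = 0.149). MCIDAS and RFX2, factors of multiciliated cells, fell by 1.11 and 1.1, and SLPI, a secreted protease inhibitor, by 0.95. A second RFX2 probe changed by -0.23 and was not called. FOXA2, a factor of airway epithelial identity, was the member that rose, from -5.73, -6.9 and -8.03, detected on 2 of these arrays, to -4.21, -4.43 and -4.47 (adjusted p = 7.86e-05). With the slide as a block its rise did not pass the test (adjusted p = 0.182). The adhesion genes were divided: 4 of 26 junction genes rose and 9 fell, beside the same shares over all genes. Their median change was -0.05, that over all genes, while 0 rose and 4 fell with the slide as a block. Under the 3 other scalings 1 to 4 were higher and 2 or 3 lower. CDH1, the gene for E-cadherin, went from 2.08, 2.2 and 2.43 to 1.34, 1.44 and 1.44, a 1.77-fold fall, and the plakophilin PKP1 was at least 2.03-fold lower. The tight junction genes CLDN1 and OCLN rose by 0.78 and 0.77 and EPCAM, an epithelial adhesion molecule, by 0.92, where the slide block left 0.05 for EPCAM. CLDN4 rose by 0.94 by its brighter probe, and its second probe, on no array above background at 24 h, changed by -1.41 (adjusted p = 0.0628).

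Metallothioneins, small proteins that bind zinc and copper, were lower at 24 h. Of 12 members of the metallothionein and zinc list, 9 were lower and 1 higher, and the median change was -1.26. MT1X had 2.8, 3.22 and 3.39 at 10 min and 1.06, 0.7 and 1.09 at 24 h, a 4.56-fold fall (limma adjusted p = 1.17e-05, and 0.0874 with the slide as a block). MT1F fell 2.85-fold (0.98, 1.35 and 1.09 against -0.36, -0.56 and -0.2) and passed the test in both fits (adjusted p = 7.35e-06 and 0.0105). MT1M fell 2.74-fold by its brighter probe, and by 2.41 on the log2 scale by its other probe. MT1A, MT1B, MT1E, MT1H and MT2A fell by 1.07 to 1.35 on the log2 scale. The probes of these paralogs may share signal, so they are not separate observations. MTF1, the zinc sensor that drives them, was the member that rose, by 0.76 (adjusted p = 0.000113). With the slide as a block 1 of the 12 was lower and 0 higher, and 7 or 8 were lower under the 3 other scalings. The median over the list was -1.45 with the block and -1.34 between the 24 h arrays and the 2 h 25 min array of the same slide. MTF1 binds metal response elements, written TGCGCNC, and 3 of 7 list members with a RefSeq promoter held 1 or more of these letters on either strand within 250 bases before to 50 after the gene start, against 20% of all 27305 promoters. The promoter of MT1X is shown because that gene had the largest fall of the family by the brightest probe of each gene. Its upstream 250 bases (GRCh38.p14 chr16:56682220-56682469, plus strand) are given with both matches in capitals.
MT1X: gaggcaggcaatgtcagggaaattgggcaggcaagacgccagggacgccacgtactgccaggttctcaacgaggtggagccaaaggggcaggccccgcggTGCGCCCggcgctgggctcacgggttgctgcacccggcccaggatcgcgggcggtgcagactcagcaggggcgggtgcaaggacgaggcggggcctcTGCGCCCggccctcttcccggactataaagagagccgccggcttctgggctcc

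Genes that answer glucocorticoids overlapped with these, as MT1X and MT2A stand on both lists. Of 21 tested, 12 were lower and 1 higher, with a median of -0.74. In the fit with the slide block 1 was lower, SERPINA3, and the median was -0.48, and 9 or 10 were lower under the 3 other scalings. SERPINA3, an acute phase protease inhibitor, had 0.14, 0.17 and 0.22 against -1.42, -1.61 and -1.66, a 3.34-fold fall with little spread within each time (limma adjusted p = 1.33e-05, and 0.00614 with the slide as a block). MAOA, the monoamine oxidase, fell 2.62-fold, and SGK1, TSC22D3 and FKBP5, textbook targets of the receptor, by 1.15, 1.09 and 0.71. PER1 and DUSP1, also textbook targets, changed by 0.01 and 0.18 and did not pass the test. ZBTB16 was the member that rose, by 0.38.

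Cytokine genes were lower after the day. Of 29 tested NF-kB targets and cytokines, 13 were lower and 1 higher, and the median was -0.56. CCL2, the monocyte chemokine, went from -1.59, -1.06 and -1.49 to -4.26, -4.2 and -3.63, a 6.28-fold fall (limma adjusted p = 9.11e-08, and 0.00336 with the slide as a block). CXCL1, a neutrophil chemokine, went from 1.8, 1.41 and 1.73 to -0.65, -0.44 and -0.63, 4.66-fold lower. CXCL8, the neutrophil chemokine IL-8, had -3.37, -4.43 and -3.57 at 10 min and -8.67, -8.38 and -6.14 at 24 h, when it was above background on 1 array of 3. The inhibitors NFKBIA and TNFAIP3, which NF-kB itself turns on, fell by 0.6 and 0.83, and IL1B by 0.93. LIF, a cytokine of the interleukin 6 family, rose by 1.2, while IL6 changed by 0.71 and did not pass the test. The slide block gave a median of -1.18 and 6 of the 29 members lower, beside 4.42% lower over all genes. The count rested in part on single arrays. It was 5 without mock 10 min replicate 2 and 6 without mock 24 h replicate 2. It was 7 without mock 10 min replicate 3 or mock 24 h replicate 1, and 3 under each of the 3 other scalings. With those scalings and no array of the other design it was 13, 11 and 11.

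Interferon-stimulated genes showed a like count, with 13 of 24 tested lower and 2 higher and a median of -0.56. With the slide as a block 3 were lower and 0 higher, and 5 to 9 were lower under the 3 other scalings. IFI44L had -0.4, 0.14 and 0.08 at 10 min and -2.91, -2.42 and -2.29 at 24 h, 5.59-fold lower with no overlap (limma adjusted p = 3.22e-08, and 0.00492 with the slide as a block). The oligoadenylate synthetase OAS2 fell by 1.72 and the apoptosis factor XAF1 by 1.85, both detected on 2 of 3 arrays at 24 h, and 2 fainter OAS2 probes changed by 0.19 and -0.1. IRF9, a subunit of the interferon factor ISGF3, fell by 0.7. HERC5 and ISG15, the ligase and the modifier of ISGylation, rose by 0.62 and 0.46, and for ISG15 the slide block turned the sign to -0.12 (adjusted p = 0.889).

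Immediate early genes moved both ways. Of 31 tested, 9 were higher and 4 lower, and the median of 0.25 turned to -0.16 with the slide as a block, where 1 was higher and 3 lower. Without mock 24 h replicate 1 there were 5 higher and 2 lower, without mock 10 min replicate 1 there were 7 and 2, and under the 3 other scalings 2 to 4 were higher. FOS, a subunit of AP-1, had -0.05, 0.18 and 0.81 at 10 min and -2.94, -2.34 and -2.63 at 24 h, 7.74-fold lower (limma adjusted p = 0.000926, and 0.00938 with the slide as a block). With the block its change was larger, -5.49 on the log2 scale. The 1 array that linked the 10 min slide, mock 55 min replicate 1, had -1.83 for FOS beside a mean of -0.19 at 55 min. EGR1 fell 2.31-fold, EGR2 by 1.01 and the orphan receptor NR4A1 at least 1.17-fold, the last from detection on 2 arrays to none. Among those that rose were PPP1R15A, described above, and ATF3, a stress-induced factor, which went from 2.66, 2.16 and 2.17 to 3.66, 4.12 and 4.05. ATF3 had 3 of 4 probes called higher, and its rise was 0.62 with the slide as a block (adjusted p = 0.714). FOSL1, another AP-1 subunit, rose by 1.34 and DUSP5, a phosphatase of ERK, by 1.29, and these were 0.55 (adjusted p = 0.662) and 0.13 (adjusted p = 0.908) with the block.

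Targets of p53 rose together. Of 23 tested, 17 were higher and 0 lower at 24 h, beside 19.9% higher over all genes, and the median was 0.81. CDKN1A, which encodes the cell cycle inhibitor p21, had -2.28, -1.69 and -2.25 at 10 min and 0.11, -0.18 and -0.17 at 24 h, a 3.98-fold rise (limma adjusted p = 3.56e-06). GDF15, a secreted stress cytokine, went from 5.54, 5.57 and 5.54 to 7.53, 7.54 and 7.38, 3.83-fold higher with hardly any spread (adjusted p = 2.85e-07). ZMAT3, an RNA-binding target of p53, rose 4.08-fold. All 3 were clear of the 10 min values on every array. Members of the arrest, death and feedback branches were among those that rose: BTG2 by 1.31, the death receptor TNFRSF10B by 1.29, the nuclease AEN by 1.25, MDM2, which degrades p53, by 1.19, BBC3 by 0.81 and BAX by 0.46. The DNA repair genes DDB2 and XPC changed by -0.1 and -0.09 and FAS by 0.08, and did not pass the test. The slide block reduced most of these rises. The median fell to 0.45, 9 to 15 members were higher under the 3 other scalings, and 1 member was called with the block, TP53INP1, a regulator of p53 and autophagy, at 1.78 against 1.74 without the block. For CDKN1A, GDF15 and ZMAT3 the block gave 0.82 (SE 0.45, adjusted p = 0.344), 1.04 (SE 0.35, adjusted p = 0.0882) and 1.05 (SE 0.37, adjusted p = 0.105). On the slide of the 24 h arrays the 2 h 25 min array had -1.24 for CDKN1A, 6.19 for GDF15 and -2.89 for ZMAT3, each below all 3 values at 24 h.

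**Figure D2:**
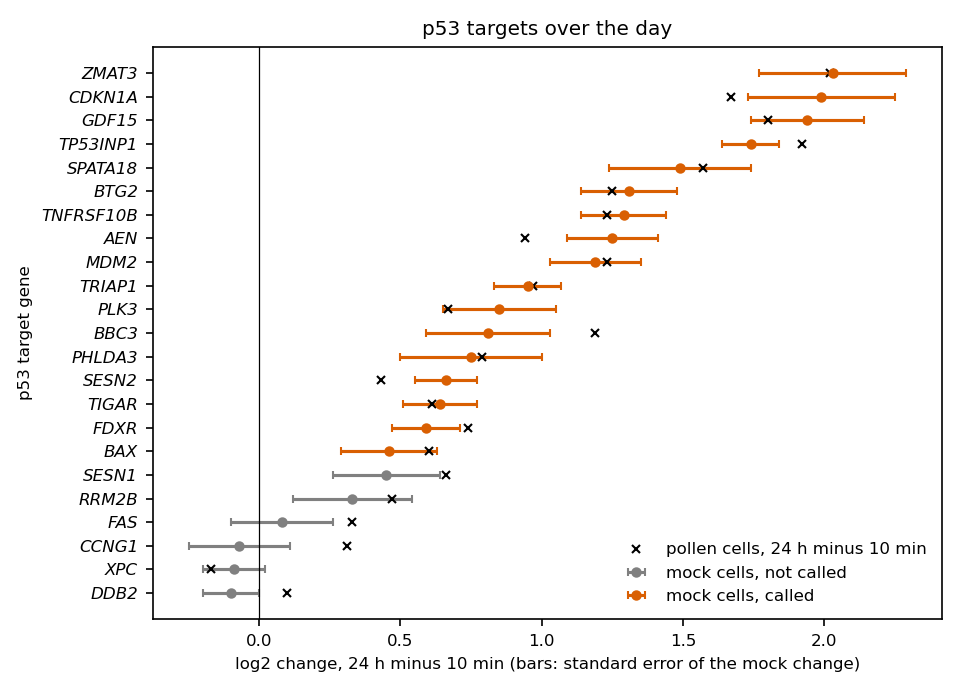
Log2 change between 24 h and 10 min for the 23 tested p53 targets. Circles with bars are mock cells with the standard error (orange where called, grey where not), and crosses are the same change in pollen cells. ZMAT3, CDKN1A and GDF15 stand at the top with 2.03, 1.99 and 1.94, and no member fell past the test.

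Genes of the cell cycle were lower, by smaller steps. Of 30 DNA replication genes 15 were lower and 4 higher (median -0.26), and of 35 mitosis genes 16 were lower and 1 higher (median -0.29). MCM6, a subunit of the replicative helicase, had 3.49, 3.88 and 3.85 against 2.52, 2.65 and 2.74, 2.16-fold lower (limma adjusted p = 6.23e-08, and 0.00835 with the slide as a block). KIF20A, a kinesin of cytokinesis, fell 2.13-fold. The proliferation marker MKI67 changed by -0.09 and FOXM1, a driver of mitotic genes, by 0.26, and neither passed the test. CDC25A, a phosphatase that opens S phase, rose by 0.99 and UBE2C, which serves the anaphase complex, by 0.65. The medians with the slide as a block were -0.06 for replication and -0.09 for mitosis genes, and 2 of the 30 replication genes were lower and 0 of the 35 mitosis genes were called. Under the 3 other scalings 3 to 11 replication and 4 to 10 mitosis genes were lower. The list of cell cycle exit genes was split, with 8 higher and 6 lower of 21, CDKN2B up by 0.76 and the growth arrest gene GAS1 down by 1.53, and with the block 1 was higher and 0 lower.

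E2F factors switch on replication genes, and E2F sites spelled TTTGGCGC, TTTCGCGC or TTTCCCGC on either strand stood in 16 of the 26 replication promoters given, against 2.79% of all promoters. The upstream 250 bases of MCM6 (GRCh38.p14 chr2:135876444-135876693, minus strand) are shown because that gene fell in both fits and held 4 matches, which overlap in pairs and are in capitals. Among the promoters with a match were genes that fell, such as MCM6 and TYMS, and genes that rose, such as CDC25A and CDC6.
MCM6: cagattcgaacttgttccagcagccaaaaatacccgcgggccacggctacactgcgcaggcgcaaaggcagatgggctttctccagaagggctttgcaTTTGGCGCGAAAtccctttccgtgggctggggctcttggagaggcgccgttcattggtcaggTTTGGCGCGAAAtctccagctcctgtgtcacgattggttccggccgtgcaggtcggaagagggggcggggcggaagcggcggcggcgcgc

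Sterol and fatty acid synthesis genes were lower. Of 25 cholesterol genes, 11 were lower and 1 higher (median -0.44), and of 14 tested fatty acid genes 8 were lower and 0 higher (median -0.53). FADS2, the delta-6 desaturase, had 4.23, 4.79 and 4.91 at 10 min and 2.53, 2.58 and 2.5 at 24 h, 4.31-fold lower (limma adjusted p = 2.48e-07, and 0.0326 with the slide as a block), while a fainter FADS2 probe changed by -0.07. FADS1, the delta-5 desaturase, fell by 1.12 and also held with the slide as a block. FDPS, of the mevalonate pathway, fell 2.17-fold, from 4.72, 5.18 and 5.01 to 3.85, 3.85 and 3.86. HMGCS1, of the same pathway, and INSIG1, a sterol sensor, changed by -0.06 and -0.09 and did not pass the test. The sign of the cholesterol list turned with the slide as a block, where the median was 0.1 and 0 of the 25 genes were called. Without mock 10 min replicate 3 there were 7 cholesterol genes lower. Of the fatty acid genes 2 were lower with the block and 4 to 6 under the 3 other scalings. SREBF1, the factor of fatty acid synthesis, fell by 0.95 by its brighter probe, and its other probe changed by 0.29.

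Genes of hypoxia and glycolysis followed CA9 in part, with 11 of 29 tested lower and 3 higher and a median of -0.2. The block left 3 lower and 1 higher, and the 3 other scalings 3 to 7 lower. The glycolytic enzymes ALDOC, ENO1 and LDHA fell by 1.54, 0.76 and 0.68, and PDK1, which holds pyruvate out of the mitochondria, by 0.61. VEGFA and PGK1, also targets of hypoxia-inducible factor, changed by 0.22 and -0.02. ENO2 and the glucose carrier SLC2A1 rose by 0.87 and 0.38, and SLC2A3, detected on 1 array at 10 min and 3 at 24 h, turned to -0.11 with the slide as a block. Of 29 oxidative phosphorylation genes, 14 were lower and 4 higher, led by NDUFS1 of complex I, from 3.8, 4.06 and 3.95 to 3.11, 3.22 and 3.16 (limma adjusted p = 6.1e-07). NDUFS1 was the 1 gene of this list called with the slide as a block, and 2 to 12 were lower under the 3 other scalings.

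Chaperones and autophagy genes were higher. Of 19 heat shock chaperones, 9 were higher and 2 lower (median 0.36), and 3 were higher with the slide as a block. HSPA8, the constitutive HSP70, had 1.61, 1.53 and 1.32 at 10 min and 3.94, 3.47 and 3.17 at 24 h, a 4.11-fold rise (limma adjusted p = 6.59e-07, and 0.00441 with the slide as a block), and a faint second HSPA8 probe changed by 0.07. The inducible pair HSPA1A and HSPA1B, near-identical copies whose probes may share signal, rose 2.31-fold and by 1.47 on the log2 scale and were called in both fits. The small heat shock genes HSPB1 and CRYAB fell by 0.8 and 0.69. Of 24 lysosome and autophagy genes, 12 were higher and 1 lower (median 0.32), while 3 were higher with the slide as a block. Under the 3 other scalings 2 to 5 were higher, and 10, 9 and 15 without the array of the other design. SQSTM1, the cargo receptor p62, went from 3.39, 3.13 and 3.04 to 5.07, 4.77 and 4.47, and MAP1LC3B, the LC3 protein of autophagosomes, from 2.31, 1.95 and 1.99 to 4.19, 3.97 and 3.89. These were 3-fold and 3.82-fold rises that passed the test with the slide as a block too (adjusted p = 0.0118 and 0.0141). MCOLN1, a calcium channel of lysosomes, rose by 1.02. TFEB, the factor that drives lysosome genes, was the member that fell, by 0.38, and its other probe changed by -0.12 and was not called.

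The unfolded protein response list had 7 of 16 higher and 1 lower, with a median of 0.29. HSPA5, the BiP chaperone of the endoplasmic reticulum, went from 1.32, 1.4 and 1.46 to 3.21, 3.13 and 2.87, 3.2-fold higher (limma adjusted p = 1.09e-06, and 0.108 with the slide as a block). HYOU1, its exchange factor, rose 2.8-fold and the co-chaperones DNAJB9 and DNAJC3 by 0.86 and 0.74. HSP90B1 and CALR, the most abundant folding proteins beside BiP, changed by -0.06 and -0.16, DDIT3, the CHOP factor, by 0.2, and PDIA4, a disulphide isomerase, fell by 0.32. The slide block left 0 of the 16 called and a median of 0.14, and 4 to 6 were higher under the 3 other scalings. The element that ATF6 reads, the ERSE, is a CCAAT box followed after 9 bases by CCACG. It stood in 5 of the 16 promoters, those of HSPA5, HSP90B1, XBP1, CRELD2 and CALR, and in 0.0806% of all promoters. Of these 5 genes HSPA5 rose and the other four did not pass the test. The upstream 250 bases of HSPA5 (GRCh38.p14 chr9:125241344-125241593, minus strand) are shown for that contrast, with the ERSE in capitals.
HSPA5: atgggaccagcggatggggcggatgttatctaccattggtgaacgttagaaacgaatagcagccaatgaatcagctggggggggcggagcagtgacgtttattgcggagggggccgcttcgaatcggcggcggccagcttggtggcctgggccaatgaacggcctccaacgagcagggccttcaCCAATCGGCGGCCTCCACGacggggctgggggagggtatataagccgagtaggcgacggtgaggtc

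Targets of the amino acid response factor ATF4 were divided, with 9 higher and 7 lower of 25, and 1 higher and 2 lower with the slide as a block. Under the 3 other scalings 1 to 4 were higher and 2 to 7 lower. ATF5 rose by 0.94 and STC2, a secreted glycoprotein, by 0.79, whereas DDIT4, CBS and ASNS, the asparagine synthetase, fell by 0.91, 0.85 and 0.68. Of 3 ASNS probes 1 was called lower, with changes between -0.68 and -0.03. FGF21 rose by 0.86 and turned to -0.4 with the slide as a block (limma adjusted p = 0.626). Of 24 tested targets of NRF2, the oxidant response factor, 3 were higher and 10 lower. With the slide as a block 2 were higher and 1 lower, while the list median was -0.28 against -0.12 without the block. Under the 3 other scalings 6 or 7 were lower. AKR1B10, an aldo-keto reductase, fell by 3.13, from -3.32, -2.97 and -2.54 to -6.38, -6.42 and -5.42, detected on 2 arrays at 24 h, and its relatives AKR1C3 and AKR1C1, whose probes may share signal, fell by 2.16 and 1.86. With the block these last were -1.17 (adjusted p = 0.138) and -0.76 (adjusted p = 0.432). FTL, the ferritin light chain, rose 2.49-fold, from 4.21, 4.18 and 4.05 to 5.72, 5.46 and 5.22 (adjusted p = 5.51e-08), with all 3 of its probes higher. HMOX1 changed by 0.44 and did not pass the test.

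The matrix changed towards lower levels. Of 31 tested extracellular matrix genes, 13 were lower and 2 higher (median -0.47). TGFBI, a TGF-beta-induced adhesion protein, had 5.61, 5.55 and 5.09 at 10 min and 3.37, 3.22 and 3.63 at 24 h, 4.02-fold lower (limma adjusted p = 2.5e-08, and 0.000402 with the slide as a block). The gelatinases MMP9 and MMP2 fell by 2.25 and 2.31 and the collagen cross-linker LOX by 1.88. COL5A1, a fibrillar collagen, rose by 1.05 and the inhibitor TIMP2 by 0.55. Of 3 COL5A1 probes 2 were called higher, with changes between 0.22 and 1.05. More members of the matrix list than of any other list were called with the slide as a block, with 9 lower and 3 higher and a median of -0.54. COL1A1, of type I collagen, was one of these 3 higher. It changed by -1.19 (SE 0.53, adjusted p = 0.0823) and with the block by 2.12, when it was called higher. Its mean level was -1.21 at 10 min, -0.4 at 55 min and -0.63 at 2 h 25 min. The 1 array that linked the 10 min slide, mock 55 min replicate 1, had 0.76 for COL1A1. On the slide of the 24 h arrays, the 24 h mean differed by -0.64 from the 2 h 25 min array, which had -1.76. Of 20 tested YAP targets 4 were higher and 5 lower, near the 19.9% and 22.2% over all genes, and the median was 0.03. With the block 1 was higher and 2 lower, beside 2.48% and 4.42% over all genes. CCN2, the connective tissue growth factor, went from 0.61, 0.91 and 0.94 to -1.9, -1.85 and -1.59, 6.05-fold lower with 0.83 at 2 h 25 min on the same slide (adjusted p = 3.03e-12, and 7.02e-06 with the slide as a block). CCN1, its close relative, changed by 0.15 and did not pass the test.

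Genes of ribosome assembly were more often higher, with 13 of 34 higher and 4 lower and a median of 0.2. None of these rises was called with the slide as a block, where 0 were higher and 1 lower. Under the 3 other scalings 1 to 5 were higher, and 12, 12 and 17 without the array of the other design. RRP12 led with a 2.29-fold rise, and PES1 rose by 0.85, while FBL and NOP58, proteins of small nucleolar particles, fell by 0.32 and 0.37. POLR1A, the large subunit of RNA polymerase I, had 3 probes, of which 1 was higher and 1 lower, between -0.9 and 0.66. The circadian clock list had 4 higher and 1 lower of 20, near or under the share over all genes, and 0 were called with the slide as a block. Without mock 10 min replicate 2 or mock 24 h replicate 3 there were 2 higher. DBP, a clock output factor, fell by 0.82 (-0.77, -0.77 and -0.85 against -1.55, -1.41 and -1.88, limma adjusted p = 1.88e-05). BMAL2, CRY1 and CRY2 rose by 0.73, 0.42 and 0.35, and BMAL1, PER2 and NR1D1 changed by -0.01, 0.23 and -0.12.

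**Figure D3:**
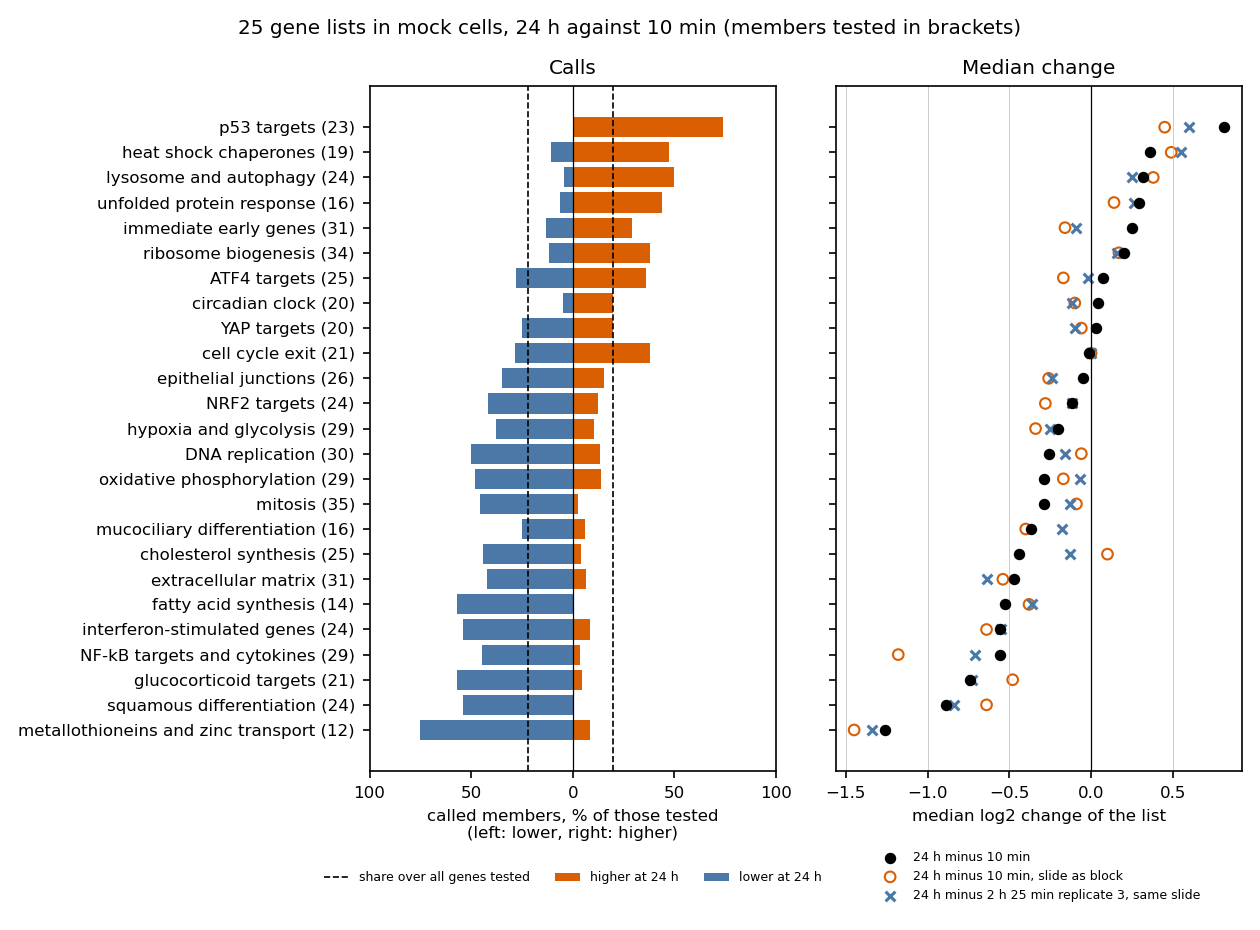
The 25 gene lists ordered by median change in mock cells. Left, called members as a share of those tested, higher to the right and lower to the left, with dashed lines at 19.9% and 22.2%, the shares over all genes. Right, the median log2 change of each list between 24 h and 10 min without (black) and with (orange) the slide as a block, and between the 24 h arrays and the 2 h 25 min array of the same slide (blue crosses). The p53 targets have the highest median, 0.81, and the metallothionein list the lowest, -1.26, and the cholesterol list crosses 0 with the block.

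Genes passed the midpoint of their change at different times of the day. At 55 min, 8.27% of the 3980 genes that fell and 11.6% of the 3566 that rose had a mean past the midpoint between their 10 min and 24 h means. At 2 h 25 min this held for 13.2% and 16.7%, and at 6 h 50 min for 39.3% and 50.3%. At 6 h 50 min, 23% of the genes that fell and 16.7% of those that rose stood on the far side of their 10 min mean. These counts share the 10 min arrays with the choice of the genes, and the 6 h 50 min arrays lay on a slide of their own, so they are a description. Single genes followed different courses. The mean of FOS was -1.86 at 2 h 25 min and -2.68 at 6 h 50 min, when it had reached its 24 h mean of -2.64. CCL2 had gone from -1.38 to -2.99 and GDF15 from 5.55 to 6.91 by 6 h 50 min, more than midway to their 24 h means. HSPA8 at 1.66 and KRT5 at 1.85 were still nearer to their 10 min means then.

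**Figure D4:**
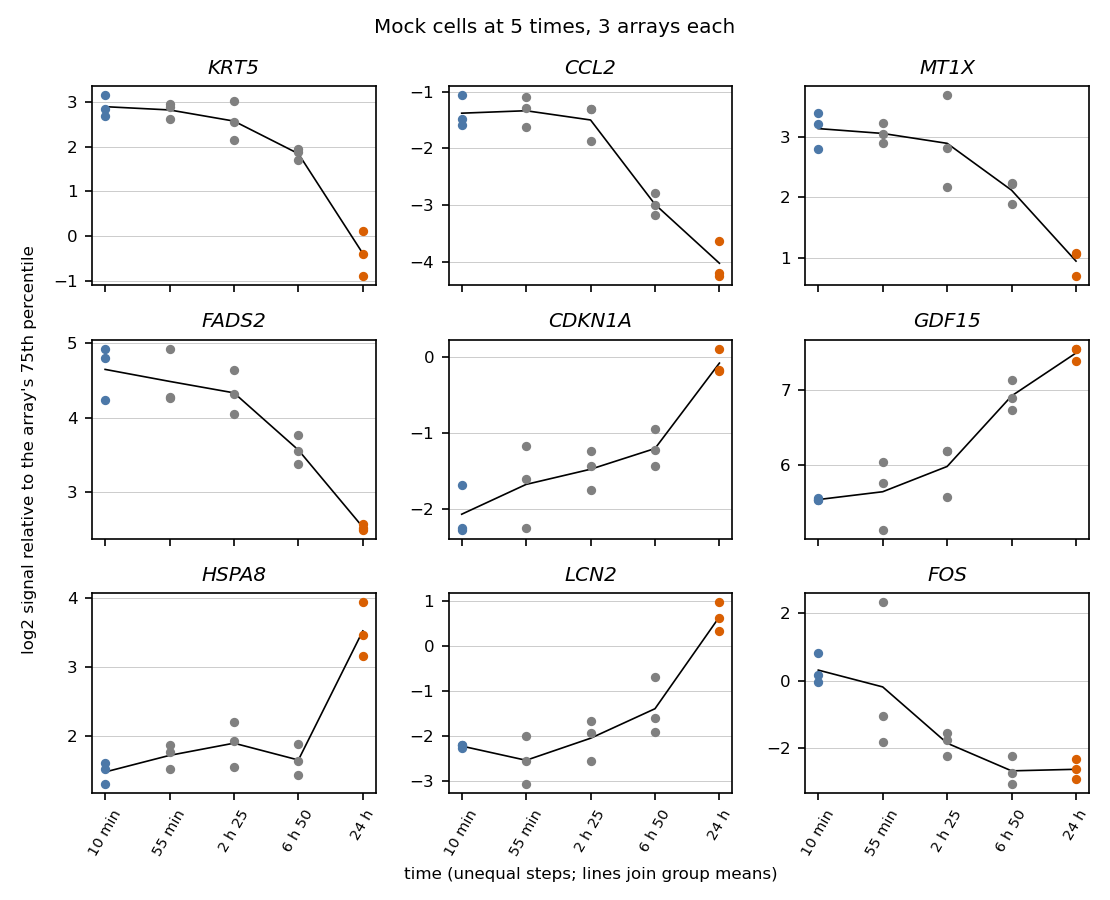
Levels of 9 genes in mock cells at 5 times, with 3 arrays each (points) and lines through the means. The y axes are log2 signal relative to the array's 75th percentile, with a scale for each gene, and the time steps are not equal. KRT5, CCL2, MT1X, FADS2 and FOS end below and CDKN1A, GDF15, HSPA8 and LCN2 above their 10 min values (blue) at 24 h (orange).

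Pollen cells, compared between the same times on other arrays of the same slides, changed in much the same genes. Of 17921 genes, 3323 (18.5%) were higher and 3520 (19.6%) lower at 24 h than at 10 min. The genes higher in both numbered 2747, which is 77% of those in mock and 82.7% of those in pollen cells, and those lower in both 2836, 71.3% and 80.6%. No gene was called in opposite directions. Mock and pollen arrays of the same time shared a slide, so a slide difference would enter both comparisons. The overlap therefore cannot tell slide from time. The change in pollen cells was also set against that in mock cells by an interaction term, and 0 of 32099 probes (0%) passed (limma). Of these probes 951 had an unadjusted p below 0.05, a smaller share than the 0.05 expected if none differed. The median size of the difference between both changes was 0.15 on the log2 scale. For KRT38 the fall was smaller in pollen cells by 1.32 (SE 0.29) and for SERPINB4 by 1.52 (SE 0.61), and for both the adjusted p was 1. Of the p53 targets 18 were higher in pollen cells (median 0.79), of the metallothionein list 8 lower (median -0.95) and of the squamous list 12 lower (median -0.93). The NF-kB list had 5 lower and 2 higher in pollen cells, with a median of -0.29 beside -0.56 in mock cells, and the difference between these lists was not tested.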

How the data were processed

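BEAS-2B RNA from 30 one-colour arrays was used, 6 of them for the main comparison. The deposited intensity values (processed signal, and mean and background signal for an alternative) came from the authors' Agilent Feature Extraction 11.0.1.1, per the labels, with local background removed and no scaling across arrays. The deposited log2 values, normalized by the authors with limma according to the methods, served as an alternative. There, 6 of 29 columns used were closest to another array of their own group. Spots of a probe were averaged without outlier spots, and log2 processed signal was scaled to the 75th percentile of the 33873 probes that both designs share. A probe was tested if some group of the 10 had it well above background in all its arrays. Tests were run with limma 3.58.1 (R 4.3.3) over all arrays, with group means as the model. A probe was called at an adjusted p (Benjamini-Hochberg) below 0.05 and at least 1.1-fold, as in the methods. Genes were taken by the probe with the highest mean, and 33536 probes were named by accession through RefSeq and 4609 by name. The fit was tested on simulated data with independent noise and no slide effect, so that test does not bear on the slide. Probe positions are hg19, and placement in exons was not analysed here. Promoters are from RefSeq (GRCh38.p14). Named genes were the 12 largest separated changes each way, the 4 largest each way from or to below background, and up to 3 called members each way of each of 25 lists. Other list members were named after their values were seen. Members and lists were chosen with earlier results of these data known.
Precision is limited by 3 arrays per group. The alternatives were other normalizations, filters and sets of arrays, array weights, the replicate number or slide as a block, a 2-fold limit and leaving out each array. The array of pollen 55 min replicate 1 was of another design, and probes missing from it were fitted without that array. Some genes that the rule names are not reported here.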

Additional observations from a re-analysis of the deposited data

How the results depend on the processing

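The slide could not be separated from time by design. With the slide as a fixed block, probes higher and lower numbered 621 and 1146 in mock and 375 and 562 in pollen cells, and with a random slide block, an alternative chosen after seeing the data, 3274 and 3801 in mock and 2648 and 3022 in pollen cells. Of 146 named genes, 3 reversed under the fixed block (ISG15 to -0.12, SLC2A3 to -0.11 and FGF21 to -0.4), 88 lost the call and 55 kept it, and no other alternative reversed any. Quantile normalization gave 1935 and 2109 in mock and 1600 and 1603 in pollen cells, normexp with quantile normalization 2948 and 2717, and 2348 and 2108, and the 75th percentile over own probes 3479 and 2957, and 2685 and 2679. Without pollen 55 min replicate 1, the array of the other design, also chosen after seeing the data, these 3 settings gave 6882 and 6161, 7051 and 6357, and 7633 and 5600 in mock cells. With at least 2-fold, 1038 and 2274 were called in mock and 721 and 2505 in pollen cells. Without a filter on dim probes the interaction term called 1 probe, of the transcript TCONS_l2_00021110, which was above background on none of the 12 arrays. Leaving out one array at a time gave 4225 to 5486 higher and 4948 to 5937 lower in mock, and 3650 to 4556 higher and 4342 to 5847 lower in pollen cells. The replicate block gave 5578 and 6425 in mock, 5012 and 6218 in pollen cells and 0 for the interaction. Arrays with the same number at 10 min and 24 h deviated from their group means with correlations of 0.01, -0.08 and 0.22, so the numbers were not taken to pair them. Signal over background limits the lowest genes, whose folds are bounds.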
